A study of Mus musculus with 15 samples.

Results

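Of the 40 genes described here, 39 encode proteins that build ribosomes in the nucleolus, and the other is *Myc*, a transcription factor known to drive many of them. They were measured in the 21EM15 mouse lens epithelial cell line. The members were named by symbol and selected on 1 measured property, that the gene was listed for both pairs of groups, which required that it passed the low expression filter of the authors. All 40 of 40 named genes were kept, out of 11677 genes listed for the cultures, 11299 for the microdissected regions and 11041 for both. No named gene fell outside it, and the member with the fewest reads was *Myc* in the regions, with 0 to 26 per sample. The members were also named with earlier results of these data known.

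The 15 samples of 3′ end RNA sequencing were all labelled WT and all came from this 1 immortalized line. There were 4 samples of cells grown in a dish (2D), 4 of 3D spheroids grown in wells to which cells do not adhere and, cut from sections of such spheroids by laser capture microdissection, 4 of the inside (internal) and 3 of the rim (external). Each 3D or region sample pooled many spheroids. The authors set aside another external sample after a principal component analysis, and it was not analysed here, so how well the regions separate is not independent of that choice. RNA of the cultures and of the regions was extracted with different kits and normalized separately, so levels were compared only between 2D and 3D or between internal and external. By the methods of the study each replicate had its own dish or its own pool of spheroids. Neither the methods nor the labels say whether these were seeded on separate occasions. They also do not say whether an internal and an external sample could come from the same pool. The p-values therefore measure the spread between these samples. Reads in listed genes ranged from 7305053 to 9362587 per culture sample and from 4044230 to 11702504 per region sample, and 3 reads, taken as the smallest signal, corresponded to between 0.248 and 0.802 CPM, the reads of a gene scaled to a fixed library total. Reads from 3′ ends do not scale with transcript length. The 95% intervals given below come from the fitted models and reflect the spread between samples. The limit of 3 reads takes account of counting error only.

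The line was checked against its label. Of 6 lens epithelium markers, *Pax6*, *Six3* and *Cryab* were listed in all groups, while *Foxe3*, *Cdh1* and *Cryaa* were not listed. Of 11 lens fibre markers, none was listed in the cultures and only *Bfsp1* in the regions, where its level was 1.65 to 4.35 CPM internally and 0 to 2.61 CPM externally.

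Ribosomes are assembled from ribosomal RNA and proteins, and the first steps take place in the nucleolus. RNA polymerase I transcribes the precursor RNA. Box C/D and H/ACA small nucleolar ribonucleoproteins (snoRNPs), guided by small nucleolar RNAs, place methyl groups and pseudouridines on it. Processing factors then cut and fold it into the small and the large subunit, and the nucleolar proteins nucleolin and nucleophosmin hold the compartment together. The lens grows from epithelial cells that divide near its equator and leave the cell cycle as they become fibres. Growing cells need many new ribosomes, and *Myc* and its partner *Max* bind the sequence CACGTG, called the E-box.

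Promoter sequence is shown because the E-box is the sequence through which *Myc* is known to act. RefSeq promoter windows of GRCm38.p6, from 250 bases before to 50 bases after the transcription start, were found for 33 of the 40 members. *Bop1*, *Rrs1*, *Myc*, *Fbl*, *Npm1*, *Tcof1* and *Rrp12* were not matched. CACGTG, which reads the same on both strands, was present in 7 of the 33 members (21.2%), against 12.0% of the 8864 genes listed in both comparisons that had a window and 8.09% of all 27025 genes with one. The 7 were *Mybbp1a*, *Wdr43*, *Utp20*, *Utp4*, *Imp4*, *Pes1* and *Nop2*. The 4 with the smallest adjusted p in 3D against 2D are printed 5′ to 3′ on the strand of the gene, with the motif matches in capitals. In *Nop2* the capitals also mark CCGGAAG, the core recognized by ETS factors, and in *Imp4* they mark CGCCATCTT, the YY1 core AAGATGGCG read on the other strand.
*Nop2*, chr6:125131733-125131882, plus strand, the 150 bases before the start: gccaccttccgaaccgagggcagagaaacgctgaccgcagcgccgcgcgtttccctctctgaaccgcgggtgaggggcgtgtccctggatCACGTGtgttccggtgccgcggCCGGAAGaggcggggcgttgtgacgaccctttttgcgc
*Imp4*, chr1:34439679-34439828, plus strand, the 150 bases before the start: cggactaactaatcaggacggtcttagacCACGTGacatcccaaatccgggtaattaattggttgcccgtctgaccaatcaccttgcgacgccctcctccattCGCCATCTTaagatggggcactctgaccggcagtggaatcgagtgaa
*Mybbp1a*, chr11:72441347-72441376, plus strand, bases 21 to 50 after the start: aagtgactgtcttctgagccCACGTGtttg
*Wdr43*, chr17:71616220-71616249, plus strand, bases 6 to 35 after the start: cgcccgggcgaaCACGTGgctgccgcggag

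The E-box began 60 bases before the start in *Nop2* and 121 bases before it in *Imp4*, while it lay after the start in *Mybbp1a* and *Wdr43*. The other motifs were searched on both strands. The ETS core CCGGAAG was present in 10 of 33 members (30.3%), against 21.4% of the genes listed in both comparisons, and those with it included *Nhp2*, *Gar1*, *Nolc1* and *Heatr1*. AAGATGGCG was present in *Imp4* and *Ftsj3* (6.06%, against 3.85%). The palindromic core bound by NRF1 was present in 0 of 33, against 2.44%. These matches describe the letters in the windows and were not tested for binding.

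The first comparison asks how growth as 3D spheroids differs from growth in a dish. Of the 40 members, 24 were lower in 3D spheroids and 0 were higher by limma at an adjusted p under 0.05, while 9.25% of all genes tested were lower and 9.74% higher (10.5% lower among genes averaging 2 log2 CPM or more). The log2 fold change was negative for 39 of 40, with a median of -0.67, against -0.03 over all genes. Before adjustment, 30 of the 40 members and 3930 of all 11677 genes had a p under 0.05, in either direction. In 19 members each 3D sample lay below each 2D sample, a separation that 12.0% of all genes showed in that direction. The members were chosen with earlier results of these data known, so these counts describe them and are not a test of the group. CPM are shares of a library, and in such bulk samples fewer cells with a transcript and less of it per cell cannot be told apart.

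**Figure D1:**
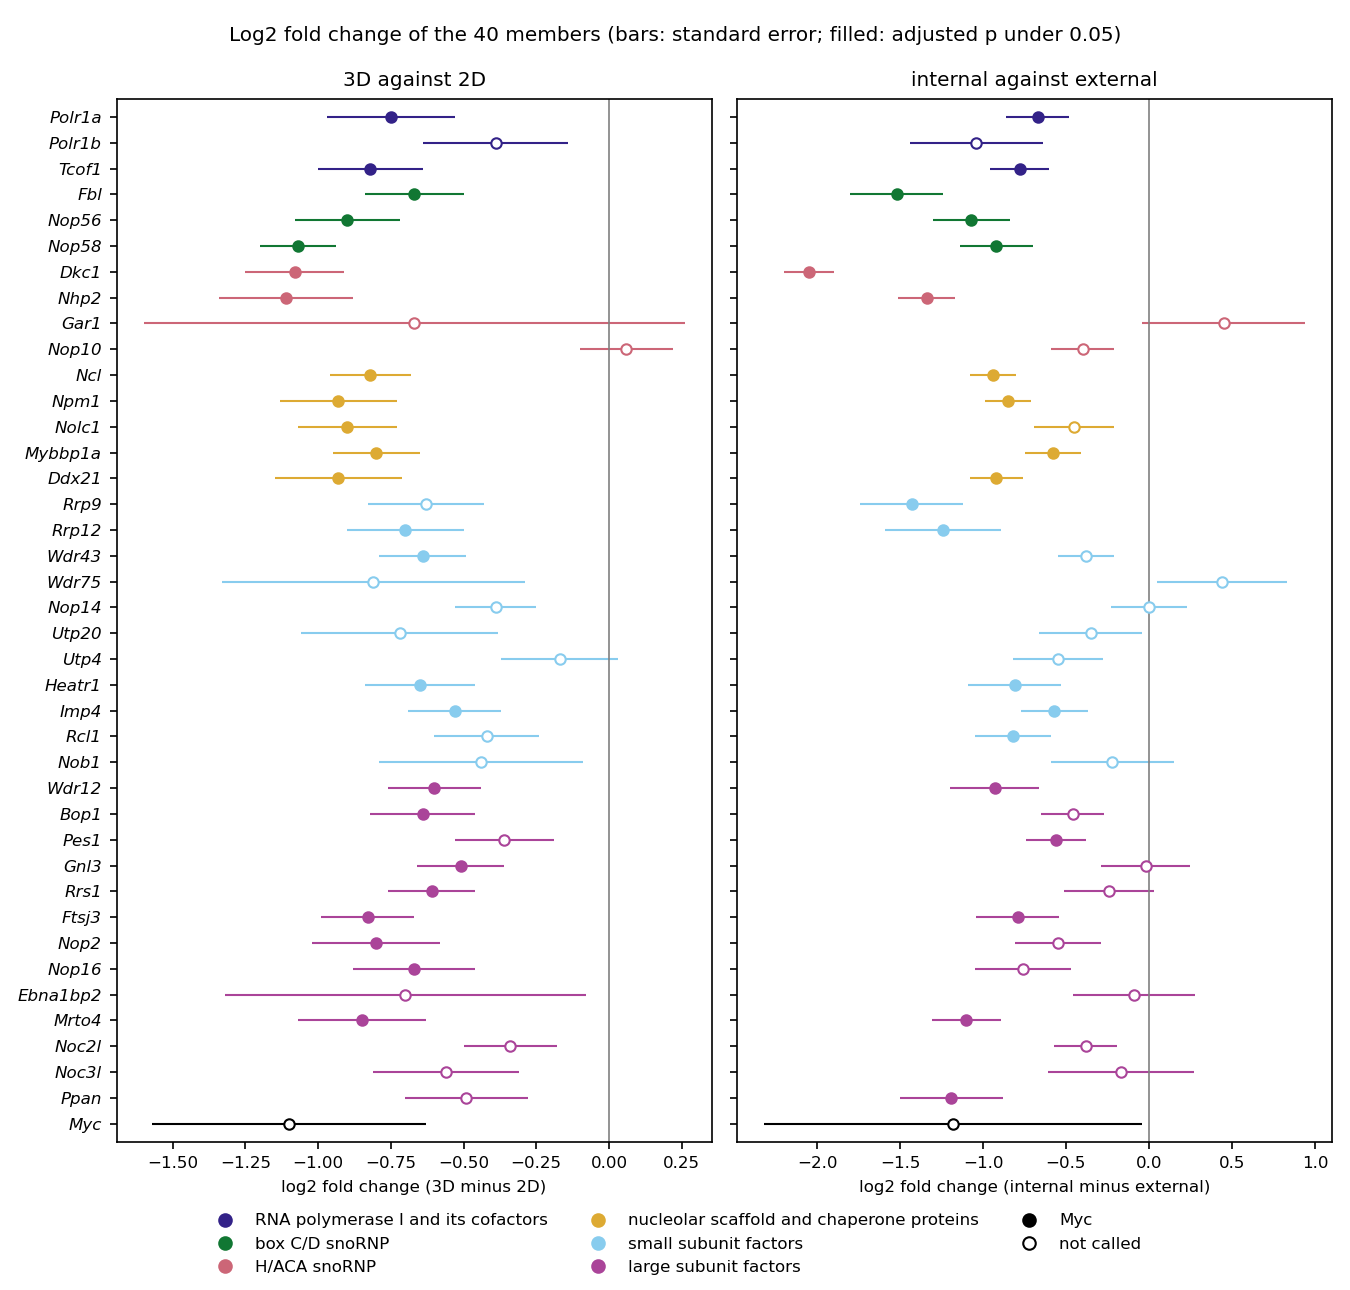
Log2 fold change of each of the 40 members in 3D against 2D (left) and internal against external (right), with bars for the standard error and colours for the role of the gene. Filled circles had an adjusted p under 0.05; 24 are filled on the left and 21 on the right, all below 0, and *Nop10* on the left is the member with a positive value there.

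*Nop58*, *Dkc1* and *Nhp2*, or 3 of 40, passed a stricter rule, which asks for an adjusted p under 0.01 and a fold of more than 1 log2 unit, and 1.51% of all genes passed it in that direction. The number of calls depended on single samples: it was 14 without 2D 3, 14 without 2D 4, 14 without 3D 1, 11 without 3D 3 and 12 without 3D 4, while the share of all genes called lower was then between 4.56% and 5.78%. Without both samples numbered 2 it was 27, and 11.2% of all genes were then called lower. Of the 24 members called with all samples, 10 were called in at most 4 of the 8 fits that lacked 1 sample: *Polr1a*, *Rrp12*, *Heatr1*, *Imp4*, *Wdr12*, *Bop1*, *Gnl3*, *Nop2*, *Nop16* and *Mrto4*. Whichever single sample was left out, 11 members were called: *Tcof1*, *Nop56*, *Nop58*, *Dkc1*, *Nhp2*, *Ncl*, *Npm1*, *Nolc1*, *Mybbp1a*, *Wdr43* and *Ftsj3*.

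All 3 box C/D proteins were lower in 3D spheroids. *Nop58* (chr1:59684971-59719044), a core protein of these particles, stood at 8.31, 7.97, 8.05 and 8.37 log2 CPM in 2D and at 7.11, 7.23, 7.02 and 7.09 in 3D. The groups did not overlap, and the level fell to 47.8% of that in 2D (log2 fold change -1.07 ± 0.13 SE, n = 4 and 4, limma adjusted p = 0.000835). *Nop56*, its paired core protein, stood at 7.73, 8.08, 7.66 and 7.92 in 2D and at 6.80, 7.40, 6.61 and 6.99 in 3D. Here too the highest 3D sample was below the lowest 2D sample (-0.90 ± 0.18, adjusted p = 0.00758 by limma). *Fbl* (chr7:28169710-28179269) encodes fibrillarin, the methyltransferase of the particle. Its level was 6.16, 6.52, 6.11 and 6.13 log2 CPM in 2D and 5.84, 5.78, 5.23 and 5.41 in 3D. The groups were apart, with a smaller change (-0.67 ± 0.17, limma adjusted p = 0.0239) that was no longer called without 3D 3 (0.0729) or without 3D 4 (0.0727).

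Of the 4 H/ACA proteins, 2 were lower in 3D spheroids. *Dkc1* (chrX:75095854-75109777), the pseudouridine synthase dyskerin, stood at 8.02, 8.39, 8.24 and 8.76 log2 CPM in 2D and at 7.18, 7.6, 7.13 and 7.16 in 3D. No 3D sample reached the 2D range, and the level in 3D was 47.2% of that in 2D (-1.08 ± 0.17, limma adjusted p = 0.00287). *Nhp2*, an RNA-binding protein of the same particle, was at 6.74, 7.33, 7.25 and 7.63 in 2D and at 5.87, 6.59, 5.77 and 6.28 in 3D. Its groups were also apart (-1.11 ± 0.23, limma adjusted p = 0.00886). *Nop10*, the smallest protein of the particle, stood at 7.51, 8.13, 7.88 and 8.13 in 2D and at 7.80, 7.84, 8.04 and 8.20 in 3D. These ranges overlapped, and the 95% interval of its difference ran from -0.30 to 0.42, so that a fall as large as that of *Dkc1* lay outside it. *Gar1*, the remaining protein of the set, had a log2 fold change of -0.67 ± 0.93 (limma adjusted p = 0.649), and its level differed more between samples of a group (SD 2.04 in 2D and 1.36 in 3D) than between groups. Its log2 fold change ranged from -1.66 without 2D 2 to 0.01 without 3D 2, and it was called without both of them (-0.98, limma adjusted p = 0.0324).

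Each of the 5 nucleolar scaffold and chaperone genes fell in 3D spheroids, with non-overlapping groups in all 5. *Npm1*, which encodes the histone and ribosome chaperone nucleophosmin, was at 10.43, 9.43, 10.09 and 10.07 log2 CPM in 2D and at 9.10, 8.79, 9.15 and 9.27 in 3D (-0.93 ± 0.20, limma adjusted p = 0.0118). *Ddx21*, a nucleolar RNA helicase, was at 7.58, 7.47, 8.04 and 8.25 in 2D and at 6.84, 7.44, 6.83 and 6.51 in 3D (-0.93 ± 0.22, limma adjusted p = 0.0173). Sample 3D 2 lay just under 2D 2 for *Ddx21*, and its call was lost without 3D 3 (0.0546) or 3D 4 (0.0574). *Ncl* (nucleolin, -0.82 ± 0.14), *Nolc1* (-0.90 ± 0.17), a chaperone of snoRNPs, and *Mybbp1a* (-0.80 ± 0.15), a nucleolar binding partner of transcription regulators, passed with adjusted p between 0.00391 and 0.00701 by limma.

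Of the RNA polymerase I genes, *Tcof1*, which encodes the nucleolar cofactor treacle, was at 7.12, 6.88, 6.59 and 7.07 log2 CPM in 2D and at 5.69, 6.44, 6.22 and 6.04 in 3D. Each 3D sample was below each 2D sample (-0.82 ± 0.18, limma adjusted p = 0.0129). *Polr1a*, the largest subunit of the polymerase, was at 5.27, 5.74, 6.06 and 6.09 in 2D and at 4.88, 5.47, 5.01 and 4.80 in 3D. These overlapped, since 3D 2 lay above 2D 1 (-0.75 ± 0.22, limma adjusted p = 0.036), and the call was lost without 2D 3 (0.0934), 2D 4 (0.0962), 3D 1 (0.0927), 3D 3 (0.0893) or 3D 4 (0.103). *Polr1b*, the second largest subunit, did not pass (-0.39 ± 0.25, limma adjusted p = 0.307).

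**Figure D2:**
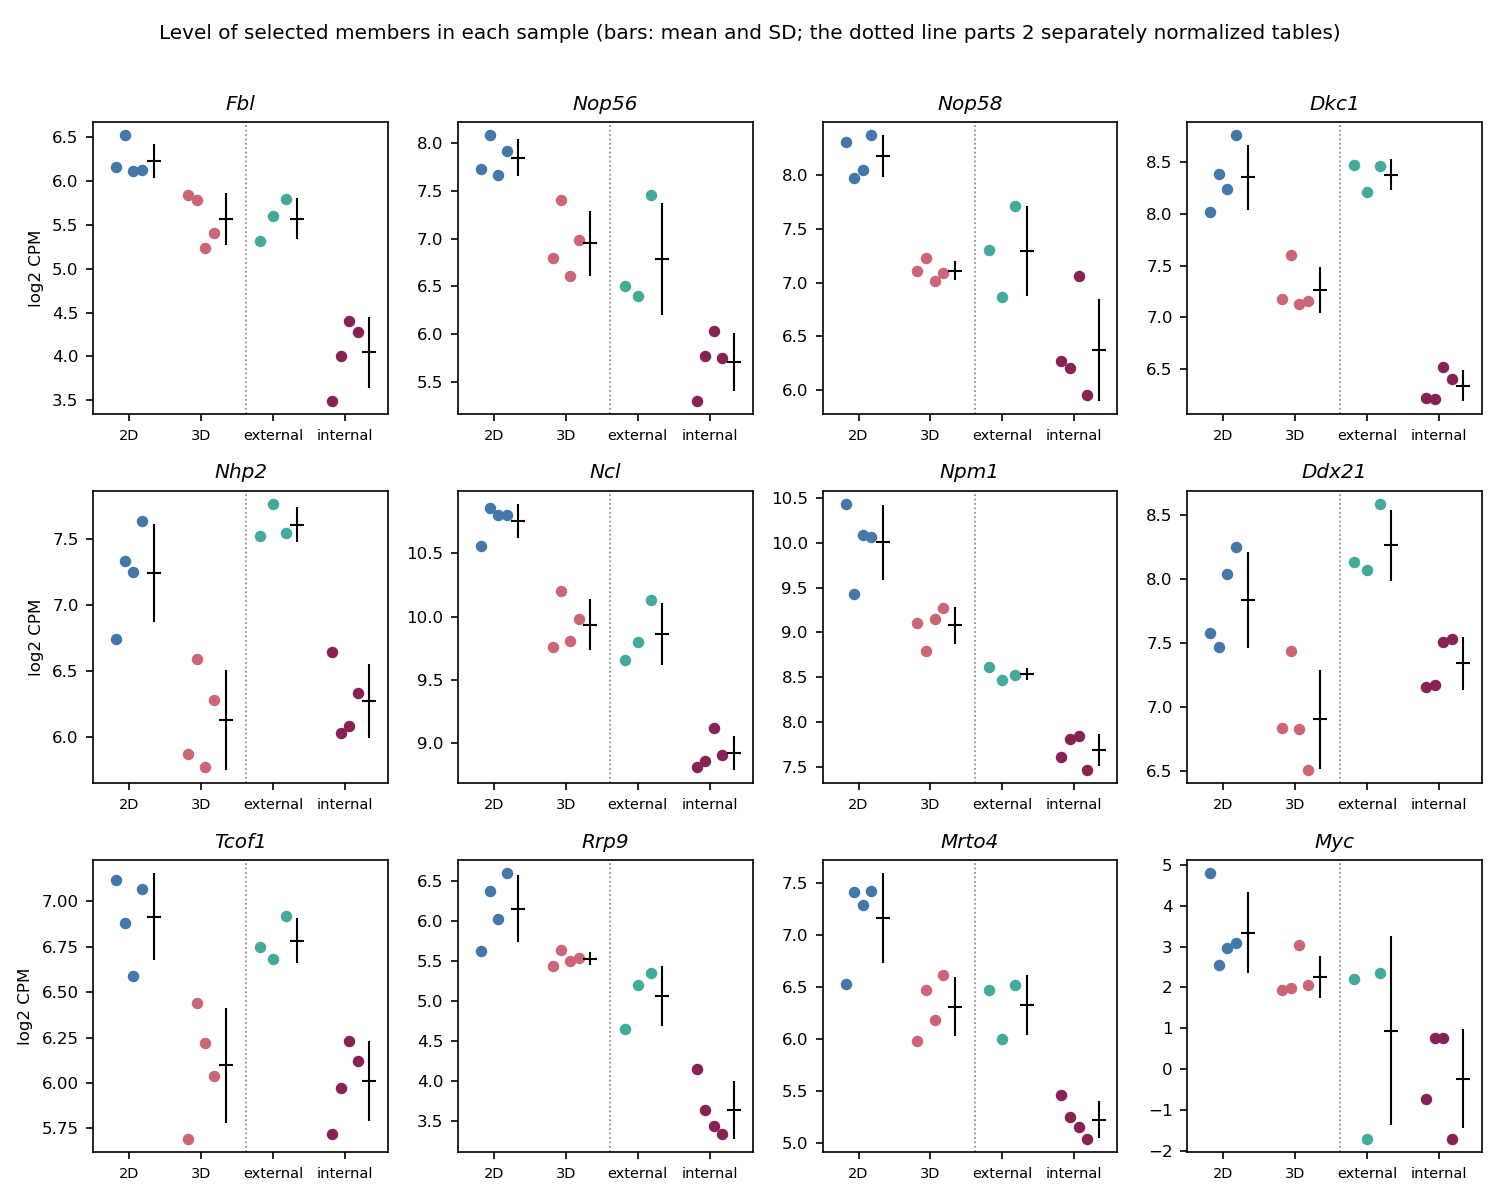
Level of 12 members in each sample, in log2 CPM, by group, with the mean and SD beside the points; the dotted line separates cultures and regions, which were normalized separately. In *Dkc1*, *Nhp2*, *Ncl* and *Npm1* the 3D samples lie below all 2D samples and the internal samples below all external ones, while the samples overlap in *Myc*.

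Of the factors that build the subunits, 4 of 11 for the small and 8 of 13 for the large subunit were lower in 3D. Differences between the roles were not tested. *Wdr75*, a subunit of the UTP-A complex of the small subunit processome, was at 6.15, 3.80, 5.52 and 6.14 log2 CPM in 2D and at 4.89, 3.49, 5.24 and 4.73 in 3D. *Utp20*, a large scaffold protein of the same precursor, was at 5.18, 3.96, 5.19 and 5.41 in 2D and at 4.74, 3.61, 4.10 and 4.38 in 3D. In both genes the samples numbered 2 were the lowest of their group. With all samples neither passed (limma adjusted p = 0.300 and 0.158), and without both samples numbered 2 both did (-0.98, adjusted p = 0.0139, and -0.85, adjusted p = 0.0189). Both were also called without 2D 2 alone (0.0229 and 0.0144). The 4 small subunit factors that fell were *Rrp12*, *Wdr43*, *Heatr1* and *Imp4*, by 0.53 to 0.70 on the log2 scale, and with 1 sample left out *Rrp12* was called in 3 of 8 fits and *Heatr1* and *Imp4* in 2. *Rrp9*, which binds the U3 snoRNA, missed the threshold (-0.63 ± 0.20, limma adjusted p = 0.0505), as did *Nop14* (-0.39 ± 0.14), *Rcl1* (-0.42 ± 0.18), *Nob1* (-0.44 ± 0.35) and *Utp4* (-0.17 ± 0.20).

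*Mrto4*, a placeholder for a stalk protein on the early large subunit, was at 6.53, 7.42, 7.29 and 7.43 log2 CPM in 2D and at 5.98, 6.47, 6.19 and 6.62 in 3D. Sample 3D 4 lay above 2D 1, the other 2D samples above all of 3D (-0.85 ± 0.22, limma adjusted p = 0.023), and the call was lost without 2D 3 (0.0562), 2D 4 (0.065), 3D 1 (0.0679) or 3D 3 (0.0692). *Ftsj3*, an RNA methyltransferase of the early large subunit, was at 6.56, 6.89, 7.13 and 7.18 in 2D and at 5.99, 6.08, 6.05 and 6.33 in 3D. Its groups were apart (-0.83 ± 0.16, limma adjusted p = 0.00716). *Nop2*, *Wdr12*, *Bop1*, *Gnl3*, *Rrs1* and *Nop16* also fell, by 0.51 to 0.80, with overlapping groups for *Nop2*, *Bop1* and *Nop16*. With 1 sample left out, *Nop16* was called in 1 of 8 fits, *Nop2*, *Bop1* and *Gnl3* in 3, *Wdr12* in 4 and *Rrs1* in 5. *Pes1*, which forms a complex with *Bop1* and *Wdr12*, had a log2 fold change of -0.36 ± 0.17 and did not pass (limma adjusted p = 0.152). *Ebna1bp2*, *Noc2l*, *Noc3l* and *Ppan* had values between -0.70 and -0.34 and did not pass either. *Ebna1bp2* ranged from -1.38 without 2D 2, where it was called (limma adjusted p = 0.0229), to -0.30 without 3D 2, and was called without both (-0.98, limma adjusted p = 0.00768).

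*Myc* itself was at 4.80, 2.54, 2.97 and 3.08 log2 CPM in 2D and at 1.93, 1.98, 3.03 and 2.07 in 3D. It was highest in 2D 1, and 3D 3 lay within the 2D range. The log2 fold change of -1.10 ± 0.47 did not pass (limma adjusted p = 0.128), with between 28 and 263 reads per sample. Without 2D 1 it was -0.61 (limma adjusted p = 0.239).

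The second comparison asks how the internal region of the spheroids differs from the external region. Of the 40 members, 21 were lower in the internal region and 0 were higher by limma, while 12.1% of all genes tested were lower and 9.58% higher (12.6% lower among genes averaging 2 log2 CPM or more). The log2 fold change was negative for 37 of 40, with a median of -0.72, against 0.04 over all genes. In 20 members each internal sample lay below each external sample, which 15.4% of all genes showed in that direction. Under the stricter rule 7 passed (4.35% of all genes): *Dkc1*, *Fbl*, *Rrp9*, *Nhp2*, *Ppan*, *Mrto4* and *Nop56*. The count was 13 without external 2, where 8.88% of all genes were called lower, and 10 in a fit without a variance trend, where 7.65% were. Whichever single sample was left out, 12 members were called: *Polr1a*, *Tcof1*, *Fbl*, *Nop56*, *Nop58*, *Dkc1*, *Nhp2*, *Ncl*, *Npm1*, *Ddx21*, *Rrp9* and *Mrto4*. Of these, *Nop56* (limma adjusted p = 0.0627) and *Nop58* (0.101) were not called without a variance trend.

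The most negative values were those of the snoRNP enzymes *Dkc1* and *Fbl*. *Dkc1* stood at 6.22, 6.21, 6.52 and 6.40 log2 CPM in the internal region and at 8.47, 8.21 and 8.46 in the external region. The groups were far apart relative to their SDs of 0.15 and 0.14, and the internal level was 24.2% of the external one (-2.05 ± 0.15, n = 4 and 3, limma adjusted p = 1.81e-09). *Nhp2* was at 6.64, 6.03, 6.08 and 6.33 internally and at 7.52, 7.76 and 7.54 externally (-1.34 ± 0.17, limma adjusted p = 4.87e-06). The other proteins of the H/ACA particle were not called: *Nop10* had a log2 fold change of -0.40 ± 0.19 (limma adjusted p = 0.132), and *Gar1* one of 0.45 ± 0.49 with between 13 and 109 reads per sample.

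*Fbl* was at 3.49, 4.01, 4.40 and 4.28 log2 CPM in the internal region and at 5.32, 5.60 and 5.79 in the external region. Each internal sample lay below each external one, and the internal level was 34.8% of the external one (-1.52 ± 0.28, limma adjusted p = 0.00028). *Nop56* was at 5.30, 5.77, 6.03 and 5.75 internally and at 6.50, 6.40 and 7.46 externally (-1.07 ± 0.23, limma adjusted p = 0.00156). *Nop58* fell by 0.92 ± 0.22, with internal 3 above external 2 (limma adjusted p = 0.00437).

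Among the scaffold genes, *Ncl* was at 8.81, 8.86, 9.12 and 8.91 log2 CPM internally and at 9.66, 9.80 and 10.13 externally (-0.94 ± 0.14, limma adjusted p = 2.53e-05). *Ddx21* was at 7.16, 7.17, 7.51 and 7.53 internally and at 8.13, 8.07 and 8.58 externally (-0.92 ± 0.16, limma adjusted p = 0.00017). Both had groups apart, as had *Npm1* (-0.85 ± 0.14) and *Mybbp1a* (-0.58 ± 0.17), which also fell. *Nolc1* was the member of this role that did not pass (-0.45 ± 0.24, limma adjusted p = 0.198).

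*Polr1b* was at 3.72, 2.92, 2.75 and 2.51 log2 CPM in the internal region and at 4.37, 3.62 and 4.05 in the external region. Internal 1 lay above external 2, and the log2 fold change of -1.04 ± 0.40 did not pass (limma adjusted p = 0.0693), whereas without internal 1 it did (-1.29, adjusted p = 0.038). *Tcof1* was at 5.72, 5.97, 6.23 and 6.12 internally and at 6.75, 6.68 and 6.92 externally, with the groups apart (-0.78 ± 0.18, limma adjusted p = 0.00276). *Polr1a* fell by 0.67 ± 0.19 (limma adjusted p = 0.0129).

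Of the small subunit factors, 5 of 11 were lower internally. *Rrp9* was at 4.16, 3.64, 3.44 and 3.34 log2 CPM internally and at 4.65, 5.20 and 5.36 externally (-1.43 ± 0.31, limma adjusted p = 0.0017). *Rrp12*, an export factor of the precursor subunits, was at 3.15, 3.18, 4.62 and 4.21 internally and at 5.08, 5.13 and 4.89 externally. The groups were apart in both genes, but *Rrp12* varied more within the internal region (SD 0.74, log2 fold change -1.24 ± 0.35, limma adjusted p = 0.0115) and was no longer called without external 2 (0.0606). *Heatr1*, *Imp4* and *Rcl1* fell by 0.57 to 0.82, but *Heatr1* was called in 2 and *Imp4* in 1 of the 7 fits that lacked 1 sample. *Nop14* (0.00 ± 0.23) and *Wdr75* (0.44 ± 0.39) were the small subunit factors with values at or above 0, and neither passed. *Wdr43*, *Utp20*, *Utp4* and *Nob1* had values between -0.55 and -0.22 and did not pass either.

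Of the large subunit factors, 5 of 13 were lower internally: *Ppan*, *Mrto4*, *Wdr12*, *Ftsj3* and *Pes1*. With 1 sample left out, *Pes1* was called in 3, *Ftsj3* in 4 and *Wdr12* in 5 of 7 fits. *Mrto4* was at 5.46, 5.25, 5.16 and 5.04 log2 CPM internally and at 6.47, 6.0 and 6.52 externally, without overlap (-1.10 ± 0.21, limma adjusted p = 0.000389). *Ppan*, a factor of early large subunit assembly, was at 3.98, 4.73, 4.32 and 3.93 internally and at 5.71, 4.66 and 5.91 externally. Internal 2 lay above external 2 (-1.19 ± 0.31, limma adjusted p = 0.00663), and the call was lost without external 3 (-0.95, adjusted p = 0.069). *Gnl3*, the nucleolar GTPase nucleostemin, had a log2 fold change of -0.02, and its 95% interval ran from -0.59 to 0.54. *Nop16* (-0.76 ± 0.29, limma adjusted p = 0.0599) was close to the threshold, and *Bop1*, *Nop2*, *Rrs1*, *Ebna1bp2*, *Noc2l* and *Noc3l* had values between -0.55 and -0.09 that did not pass. *Myc* was at -0.73, 0.76, 0.75 and -1.72 internally and at 2.20, -1.72 and 2.35 externally, where -1.72 stands for 0 reads. The external samples spread widely (SD 2.31). With 0 to 12 reads in internal samples and 0 to 26 in external ones, no difference was called (limma adjusted p = 0.506), and a difference could be missed.

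Side by side, 17 members were called lower in both comparisons, 7 in the cultures alone, 4 in the regions alone and 12 in neither. *Nolc1*, *Wdr43*, *Bop1*, *Gnl3*, *Rrs1*, *Nop2* and *Nop16* were those called in the cultures alone, and *Rrp9*, *Rcl1*, *Pes1* and *Ppan* those called in the regions alone. The 17 were 70.8% of the 24 called in the cultures and 81.0% of the 21 called in the regions, and 506 of the 11041 genes listed in both, or 4.58%, were called lower in both. The 2 comparisons share no samples. Across the 40 members, which are not independent of each other, the log2 fold changes of the comparisons had a Pearson r of 0.37 and a Spearman rho of 0.40, and over all common genes r was 0.42. *Dkc1* had -1.08 and -2.05, *Fbl* -0.67 and -1.52, and *Gnl3* -0.51 and -0.02. Whether the size of a change differed between cultures and regions was not tested.

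**Figure D3:**
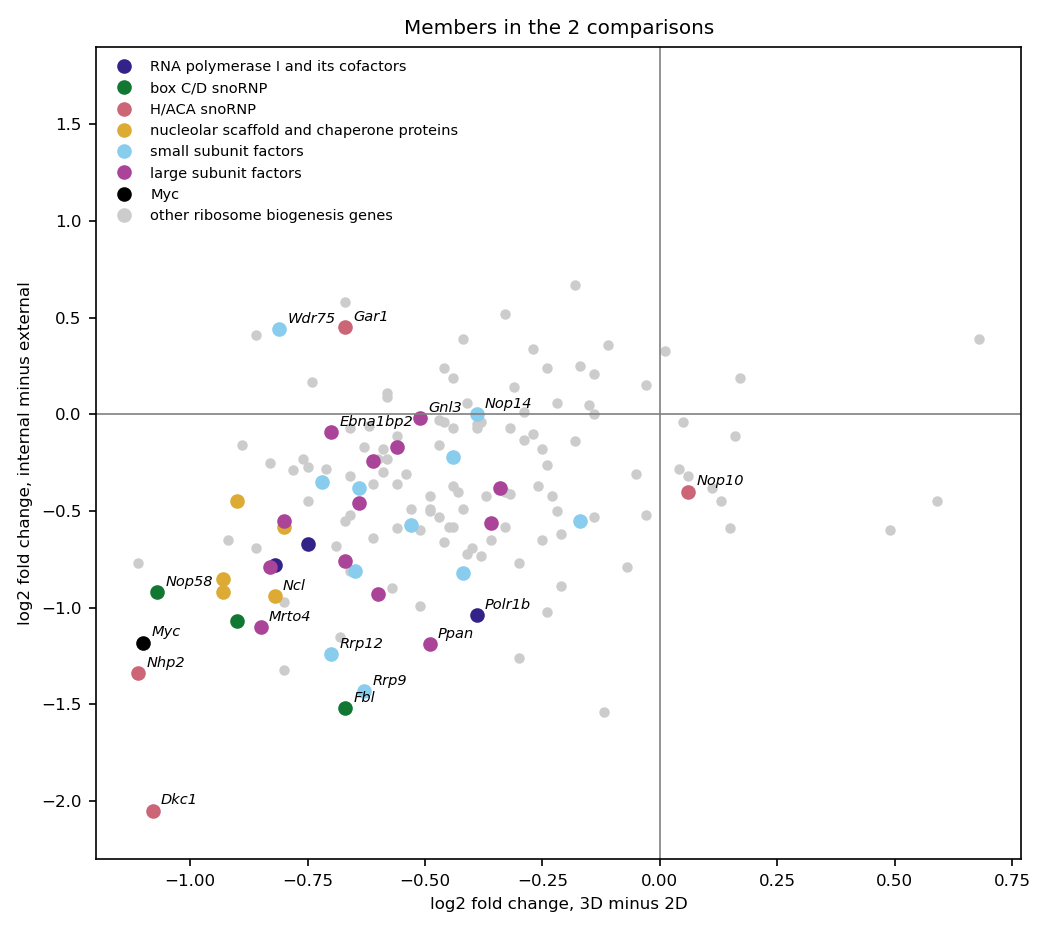
Log2 fold change in 3D against 2D (horizontal axis) and internal against external (vertical axis) for the 40 members, coloured by role, and for the other ribosome biogenesis genes in grey. Of the members 36 lie in the lower left, with *Dkc1* farthest down, while *Gar1* and *Wdr75* lie above 0 on the vertical axis and *Nop10* to the right of 0.

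The summed reads of the members give the same picture as a share of each library. The 40 genes took 0.668%, 0.667%, 0.698% and 0.814% of reads in the 2D samples and 0.384%, 0.435%, 0.389% and 0.416% in the 3D samples. They took 0.228%, 0.235%, 0.274% and 0.242% in the internal samples and 0.398%, 0.383% and 0.436% in the external ones. The means were 0.712% ± 0.0697 (SD, n = 4) in 2D, 0.406% ± 0.0239 (n = 4) in 3D, 0.245% ± 0.0203 (n = 4) internally and 0.406% ± 0.0273 (n = 3) externally. The groups did not overlap in either comparison. *Ncl* and *Npm1* alone held between 28.1% and 44.2% of the member reads, and without them the share was 0.373% to 0.519% in 2D, 0.24% to 0.278% in 3D, 0.162% to 0.194% internally and 0.265% to 0.298% externally.

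**Figure D4:**
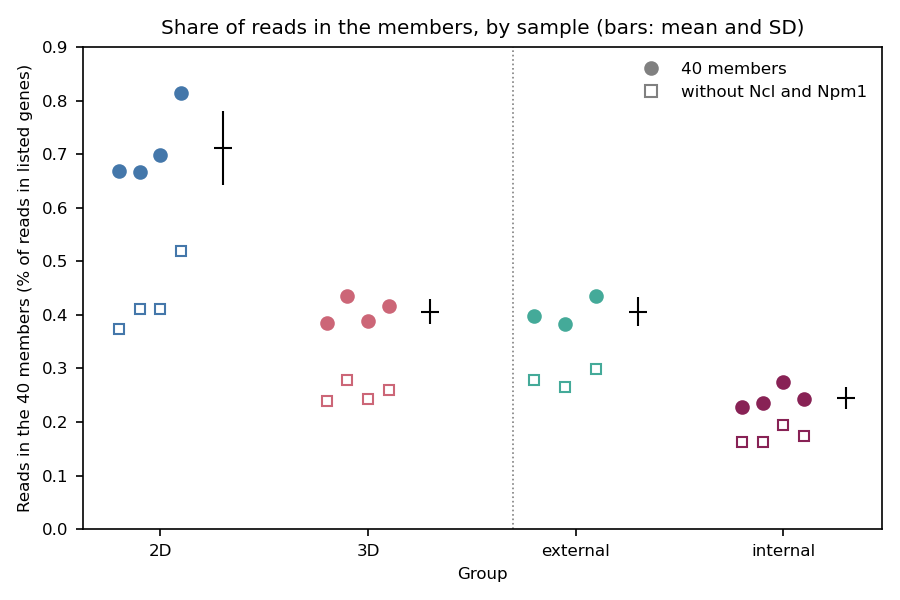
Share of reads in the 40 members in each sample (circles) and without *Ncl* and *Npm1* (open squares), as a percentage of the reads in listed genes, with the mean and SD of the circles. All 3D samples lie between 0.384% and 0.435%, under all 2D samples, and all internal samples between 0.228% and 0.274%, under all external samples.

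Some snoRNAs, the guides of these particles, are made from introns of protein-coding genes, among them several members. By GENCODE vM21, 7 of 40 members hold annotated snoRNA genes on the same strand (*Nop56*, *Nop58*, *Dkc1*, *Ncl*, *Wdr43*, *Gnl3* and *Ppan*), against 1.97% of all genes of the culture data. Their median log2 fold change was -0.82 in 3D against 2D, against -0.67 in the 33 members without and -0.18 in 223 other host genes. In internal against external it was -0.94, against -0.58 and -0.33 in 217 other hosts. *Nop56* holds 5 such genes, among them *Snord57* and *Snord110*, and *Nop58* holds 4, among them *Snord11* and *Snord70*. The reads come from polyadenylated 3′ ends of the host transcripts, so the snoRNAs themselves were not measured.

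Beyond the members, 119 other genes of ribosome biogenesis were listed from general knowledge, with the members' own results known, and 115 were measured in each comparison. In 3D against 2D 33 were lower and 1, the large subunit factor *Nsa2* (0.59 ± 0.17, limma adjusted p = 0.0322), was higher, with a median of -0.41, while 9.25% of all genes were lower and 9.74% higher. The lower count was 13 to 15 without 2D 3, 2D 4, 3D 1, 3D 3 or 3D 4, each left out alone, when 4.56% to 5.78% of all genes were lower. Among those called, *Mphosph10*, a partner of *Imp4* in the U3 particle, fell most (-1.11 ± 0.16, limma adjusted p = 0.0021), followed by the RNA acetyltransferase *Nat10* (-0.92 ± 0.22). In internal against external 20 were lower and 0 higher, with a median of -0.32 (13 lower without external 3, beside 9.14% of all genes), against 12.1% of all genes lower and 9.58% higher. The largest called falls were those of *Pa2g4* (-1.32 ± 0.18, limma adjusted p = 7.09e-06) and the RNA polymerase I factor *Taf1d* (-1.26 ± 0.21). Among the 10 measured polymerase I subunits and factors, 1 was lower in 3D, the initiation factor *Rrn3* (-0.45 ± 0.14, limma adjusted p = 0.0461), and 4 were lower internally (*Taf1d*, *Polr1c*, *Polr1d* and *Rrn3*). The share lower in 3D, 1 of 10, was near that of all genes. *Ubtf*, the main activator of ribosomal DNA, did not pass in the cultures (0.17 ± 0.35) or in the regions (0.19 ± 0.21).

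Of 8 measured genes of the *Myc* network, *Mxd4*, which encodes a *Max* partner that opposes *Myc*, rose in 3D (1.48 ± 0.25, limma adjusted p = 0.00386) and in the internal region (0.85 ± 0.18, limma adjusted p = 0.0016). *Mnt*, another such repressor, rose in 3D (0.86 ± 0.18). *Mxd3*, of the same family as *Mxd4* and also opposed to *Myc*, fell in both (-0.88 ± 0.17 and -3.95 ± 0.71). It had 0 to 12 reads in internal and 59 to 90 in external samples. The genes that oppose *Myc* thus did not all move the same way. *Max* did not pass in either (-0.29 ± 0.23 and 0.06 ± 0.22). The 1 of 8 called lower in each comparison, 12.5%, was near the share of all genes. Called higher were 2 of 8 in 3D and 1 of 8 internally, beside 9.74% and 9.58% of all genes. Of the nuclear RNA exosome, which trims precursor RNA, 2 of 13 measured genes were lower in 3D (*Dis3*, -1.40 ± 0.21, and *Exosc8*, -0.80 ± 0.15) and 1 of 12 internally (*Exosc8*, -0.69 ± 0.24). These were 15.4% and 8.33% of the measured genes, against 9.25% and 12.1% of all genes.

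Other measures moved with the members. Of 16 proliferation markers, 13 were lower in 3D (median -1.17, with 9.25% of all genes lower) and 13 internally (median -3.39, with 12.1% lower). Their summed level was 2030 to 3710 CPM in 2D, 1140 to 1310 CPM in 3D, 1150 to 1410 CPM externally and 132 to 183 CPM internally. Of 7 fibroblast markers, 6 were listed in the cultures, where their summed level was 79.4 to 257 CPM in 2D and 674 to 1070 CPM in 3D, and 5 in the regions, with 281 to 707 CPM externally and 879 to 1120 CPM internally. These sums hide differences between the markers: *Col3a1*, *Dcn* and *Postn* were called higher in 3D, where *Col1a2* had -1.47 ± 0.48 (limma adjusted p = 0.0574), and *Col3a1* and *Postn* were called higher but *Col1a1* lower (-1.56 ± 0.28) internally. The 3 listed genes of the lens epithelium list, of which *Cryab* is also known as a crystallin of lens fibre cells, summed to 781 to 1110 CPM in 2D, 1330 to 1590 CPM in 3D, 719 to 848 CPM externally and 959 to 1260 CPM internally, and 2 of 3 were called higher in each comparison (*Pax6* and *Six3* in 3D, *Pax6* and *Cryab* internally). None of 4 endothelial markers was listed, and of 5 leukocyte markers *Cd68* alone was, with at most 6.31 CPM. Mitochondrially encoded genes took 2.27% to 3.72% of reads in 2D and 4.02% to 6.23% in 3D, and 5.42% to 6.98% internally against 2.53% to 3.6% externally. The part of these measures in the lower level of the members was not tested.

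The culture samples numbered 2 stood apart for a few members. *Gar1* was at 2.37 log2 CPM in 2D 2 and 2.62 in 3D 2, whereas the remaining 2D samples ranged from 5.61 to 6.73 and the remaining 3D samples from 5.15 to 5.47. *Ebna1bp2*, a large subunit factor, was at 3.89 and 4.05 in the samples numbered 2 and at 5.49 to 6.89 in the others. For these 2 members, and for 151 of all 11677 genes (1.29%), both samples numbered 2 lay more than 1 log2 unit below all 6 other culture samples. For the numbers 1, 3 and 4 the same was true of 0, 4 and 0 genes. *Wdr75*, *Utp20*, *Npm1* and *Nob1*, an endonuclease of the small subunit, were also lowest of their groups in 2D 2 and 3D 2, by less. *Npm1* was at 9.43 and 8.79 there and was still called without both (-1.02, limma adjusted p = 0.00292). Without both samples, 22 of the 24 members were still called, without *Heatr1* (limma adjusted p = 0.0513) and *Nop16* (0.0696). In all 27 were called, beside 11.2% of all genes, the others being *Gar1*, *Ebna1bp2*, *Wdr75*, *Utp20* and *Nop14* (limma adjusted p = 0.0486). Most members did not share the pattern: *Dkc1*, for example, was at 8.39 in 2D 2 and 7.6 in 3D 2, the latter the highest of its group.

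**Figure D5:**
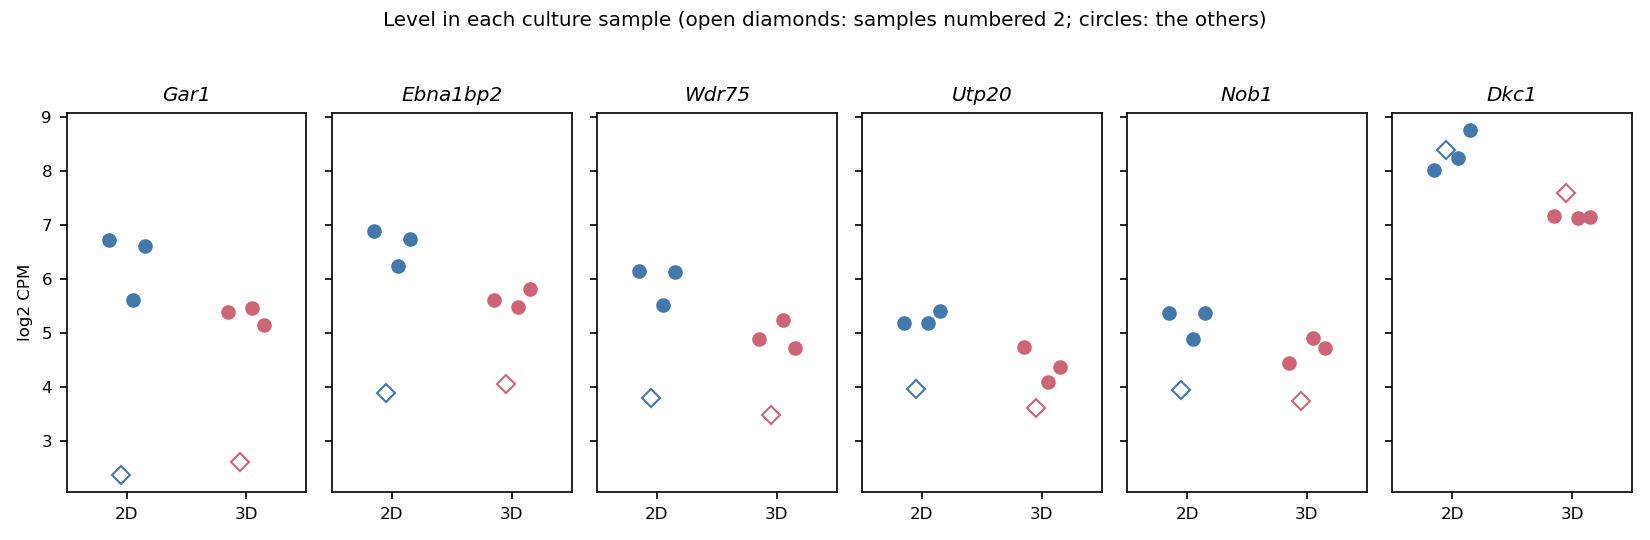
Level of 6 members in the 8 culture samples, in log2 CPM, with open diamonds for the samples numbered 2 and circles for the others. In *Gar1* both diamonds lie under 2.7 while all circles lie over 5, and in *Dkc1* neither diamond is the lowest of its group.

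Matching sequence elsewhere in the genome could take reads from some members. For 18 members, stretches of 50 bases in the last 300 bases of the transcripts were shared with another annotated gene. The other gene was a pseudogene for 10 of them (*Fbl*, *Mrto4*, *Mybbp1a*, *Ncl*, *Nop56*, *Npm1*, *Pes1*, *Polr1b*, *Wdr12* and *Wdr75*), with 6 pseudogenes each for *Npm1* and *Nop56*. The remaining 8 (*Ftsj3*, *Gnl3*, *Imp4*, *Noc2l*, *Noc3l*, *Nop58*, *Ppan* and *Rrp9*) shared stretches with genes of other kinds. For *Gnl3* and *Ppan* these were only snoRNA genes that lie within the member itself, not elsewhere in the genome. Only uniquely mapped reads were counted. Levels of these 18 genes, apart from *Gnl3* and *Ppan*, may therefore be understated to an unknown degree. Of the pseudogenes 1, *Gm14681*, a copy of *Npm1*, was itself listed.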

How the data were processed

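RNA of 21EM15 cells was measured with a QuantSeq 3′ end protocol. The authors trimmed the reads, kept sense reads, aligned them to GRCm38.p6 with STAR 2.7.8a, counted with featureCounts 1.6.0 those that mapped uniquely, removed genes of low CPM and tested the rest with edgeR; the annotation release is not given in the sources used here. Each sample has log2 CPM values as deposited, which include a prior count and a scaling of library sizes, done separately for cultures and regions. Their spacing returned whole reads, within 0.05 of a whole number, for 100.0% of 93416 and 79093 values. The authors also deposited group means, fold changes, a test score (F), p-values and adjusted p-values, and these were not used.

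Cultures and regions were fitted each on their own with limma 3.58.1 (R 4.3.3) on the log2 values, with a variance trend, two-sided, and Benjamini-Hochberg adjustment over all genes of the fit, and an adjusted p under 0.05 was taken as a call. A negative fold change means lower in 3D or lower in the internal region, and intervals are at 95%. Since log2(CPM with a prior count) was tested, changes of low genes are understated. The members and lists were chosen with earlier results of these data known. Values in every sample are given for the 2 members of each role with the largest absolute log2 fold change in a comparison, *Fbl* and *Myc*; other lists name at most 5 called genes each. *Nsa2*, *Rrn3*, *Polr1c*, *Polr1d*, *Ubtf*, *Max*, *Gar1*, *Ebna1bp2*, *Nop10* and *Nob1* were described after their values were seen. Alternatives were other variance priors, a replicate block, median-centred samples, a prior count of 0.5, voom on the recovered reads, a minimum mean of 2 log2 CPM, the stricter thresholds and leaving out samples. Protein sequences were not used here. Computations also used Python 3.11.15, numpy 2.4.6, pandas 2.3.3 and matplotlib 3.10.9.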

Additional observations from a re-analysis of the deposited data

Results flagged for a closer look

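In groups of 4, a sample was set apart where its gap to the nearest other sample divided by the range of the group was above Dixon's 95% critical value. Of 120 sets of values (40 members in 2D, 3D and the internal region), 8 had such a sample, where chance at about 1 in 20 gives 6. In 3D, *Dkc1* was highest in 3D 2 (7.6 log2 CPM, next 7.18), *Gar1* lowest in 3D 2 (2.62, next 5.15) and *Myc* highest in 3D 3 (3.03, next 2.07). In 2D, *Fbl* was highest in 2D 2 (6.52, next 6.16) and *Utp20* lowest there (3.96, next 5.18), while in 2D 1 *Mrto4* (6.53, next 7.29) and *Noc2l* (6.56, next 7.09) were lowest and *Noc3l* highest (3.02, next 2.64). No internal sample was set apart in this way.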

How the results depend on the processing

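For the members with values in every sample by the rule on named genes (14 in the cultures and 13 in the regions), 392 values under the alternatives kept their side of the threshold, 32 lost a call and 8 gained one, with no change of direction. Among the other members directions did change: with 1 sample left out, *Nop10* ranged from -0.08 to 0.13 and *Gar1* from -1.66 to 0.01 in the cultures, and *Gar1* from -0.03 to 1.10, *Nop14* from -0.14 to 0.28, *Ebna1bp2* from -0.49 to 0.15, *Gnl3* from -0.27 to 0.30, *Noc3l* from -0.51 to 0.30 and *Nob1* from -0.43 to 0.06 in the regions, where 33 members were negative without internal 1. Leaving out 1 sample gave 11 to 26 members lower in 3D against 2D and 13 to 22 in internal against external, with 0 higher. It gave 13 to 38 other ribosome biogenesis genes lower and 0 to 2 higher in the cultures and 13 to 20 lower in the regions. The median of the members in the regions was then -0.80 to -0.57. Under the stricter thresholds 3 and 7 members were lower, and 1 and 4 other ribosome biogenesis genes were, with 0 higher in the cultures. Without a variance trend 17 and 10 members were lower (7.32% and 7.65% of all genes), and 21 and 10 other genes, with 0 higher in the cultures. With samples centred on their medians 17 and 22 members were lower (7.52% and 13.9% of all genes) and, in the cultures, 20 other genes. Without the 10 genes with the most reads, the members took 0.796% of reads in 2D, 0.456% in 3D, 0.292% internally and 0.464% externally. For all of these the cause was not tested, apart from the stricter thresholds and the reduced totals. *Myc* in the regions had 0 to 26 reads per sample, and whether depth or the spread between samples limits its result was not tested.

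With the replicate number as a block, 29 members were lower in the cultures and 18 in the regions (11.4% and 9.59% of all genes), with 2 other genes higher in the cultures. The block added *Rrp9*, *Wdr75*, *Utp20*, *Ebna1bp2* and *Ppan* in the cultures (limma adjusted p from 0.0266 to 0.0474) and lost *Heatr1*, *Imp4* and *Pes1* in the regions (0.0677 to 0.107). Deviations of samples with the same number correlated by 0.227, 0.503, 0.066 and 0.005 in the cultures and by -0.044, -0.065 and -0.063 in the regions, and 4 of 8 and 0 of 6 samples correlated best with their own number. The labels do not say whether equal numbers share a culture or a pool, and internal 4 has no partner. The main fits left the samples unpaired. In the cultures both samples numbered 1 correlated best with each other, as did both numbered 2, and what they share was not tested. The unpaired fit there called 24 members.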
